A study of Arabidopsis thaliana with 16 samples.

Results

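In Arabidopsis roots carrying an inducible LBD16 fusion, 114 of 22746 probe sets were lower by at least 1 log2 unit when dexamethasone (DEX) was added together with the auxin NAA, while DEX without NAA left them near the mock level. These members were chosen by the same values. A member had a mean log2(intensity + 16) lower by at least 1 in NAA+DEX than in NAA, both NAA+DEX arrays below both NAA arrays, and a DEX minus mock difference above -0.5. It also had a mean intensity of at least 100 with NAA, an NAA minus mock difference between -2 and 1.5, and a difference between cycloheximide (CHX) and mock from -4 to 6. Of the 118 probe sets that met these conditions, 4 were set aside by name (UGT76C2, BCAT4, XTH32 and UGT74B1). The members held 46 probe sets with exactly 1 listed gene, which stand for 45 genes, and 68 probe sets with no listed gene. Of those 46 probe sets, 42 carry only a locus number as their symbol, and of these AT2G41480 has a further name, PRX25. Most members are therefore described here by their behaviour and not by a function.

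Transcript levels were measured on 16 arrays of roots from 5-day-old seedlings grown on agar in continuous light. All groups, mock included, were of 1 line: lbd16-1 lbd18-1 lbd33-1 mutants with gLBD16:GR, in which LBD16's own regulatory region drives a fusion of LBD16 and the glucocorticoid receptor (GR). The groups were mock (0.1% DMSO), DEX (2 µM), NAA (1 µM), NAA+DEX, CHX (10 µM), DEX+CHX, NAA+CHX and NAA+DEX+CHX, each for 4 h and each with 2 arrays. Roots without the fusion were not analysed here, so an effect of DEX itself cannot be told apart from one of the fusion. In whole roots, fewer cells of a type and less RNA per cell cannot be told apart either.

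LBD16 is a LOB-domain transcription factor that auxin induces in the root cells that start a lateral root. A protein fused to GR is held in the cytoplasm until a steroid such as DEX releases it to the nucleus, so DEX changes where the fusion is and not necessarily how much of it is made. CHX blocks protein synthesis, and a response to DEX that remains under CHX needs no newly made protein between the fusion and the gene. NAA is a synthetic auxin that enters cells readily.

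Median intensity per array was 150.9 to 189.3, and the 2% trimmed mean was 500 on every array. As a measure of RNA integrity, signal from the 3' end of actin exceeded that from its 5' end by a ratio of 11.07 to 26.3. The 2 values were 26.3 and 17.58 with NAA and 18.05 and 24.86 with NAA+DEX, so these groups overlapped. The same ratio for ubiquitin did not overlap, with 2.1 and 2.54 with NAA against 2.88 and 2.97 with NAA+DEX, and it was 2.49 and 2.57 in mock and 2.38 and 3.01 with DEX. It overlapped between NAA+CHX (2.86 and 3.47) and NAA+DEX+CHX (3.28 and 3.7), and that for GAPDH overlapped between NAA (1.06 and 1.29) and NAA+DEX (1.14 and 1.27). The ubiquitin ratio thus moved with the contrast that defines the members, and its part in their values was not tested. Of the tissue markers, the root hair genes EXPA7 and EXPA18 had group means of 632.5 to 1377.7 and 627.4 to 2680.3, and the leaf gene RCA, Rubisco activase, was at 292.2 to 466.7. The group means of RCA lay above the median intensity of every array. The other markers of the list matched no probe set with exactly 1 listed gene. The LBD16 probe set read 504.3 and 443.9 in mock, 5216.9 and 5072.7 with NAA and 4003.2 and 3080.9 with NAA+DEX. It read 1156.9 and 1127.2 with NAA+CHX and 1423.6 and 1440.4 with NAA+DEX+CHX, so its level with NAA was far lower when CHX was present. The sources used here do not give whether it detects the transgene, the mutated gene or both.

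The members were mostly well expressed in untreated roots, and most lay below their mock level in NAA+DEX and in every group with CHX. The rule asked for at least 100 with NAA and bounded NAA minus mock, which favours a high mock level. All probe sets had no such floor. With CHX the members' median intensity was 216.2, against 184 for all probe sets. The members' median intensity was 672.6 in mock and 671.6 with DEX, 458.9 with NAA and 167.3 with NAA+DEX, against 163.5, 153.2, 175.5 and 169.8 for all probe sets. Relative to the mock mean of each member, the median over the members was -0.09 and -0.08 on the DEX arrays, -0.63 and -0.49 on the NAA arrays and -2.0 and -2.02 on the NAA+DEX arrays (log2). It was -1.88 and -1.87 on the CHX arrays, -1.99 and -2.01 with DEX+CHX, -1.95 and -2.05 with NAA+CHX, and -2.29 and -2.23 with NAA+DEX+CHX. The arrays of a group thus lay close together, and the NAA+DEX arrays lay at about the level of the CHX arrays.

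**Figure D1:**
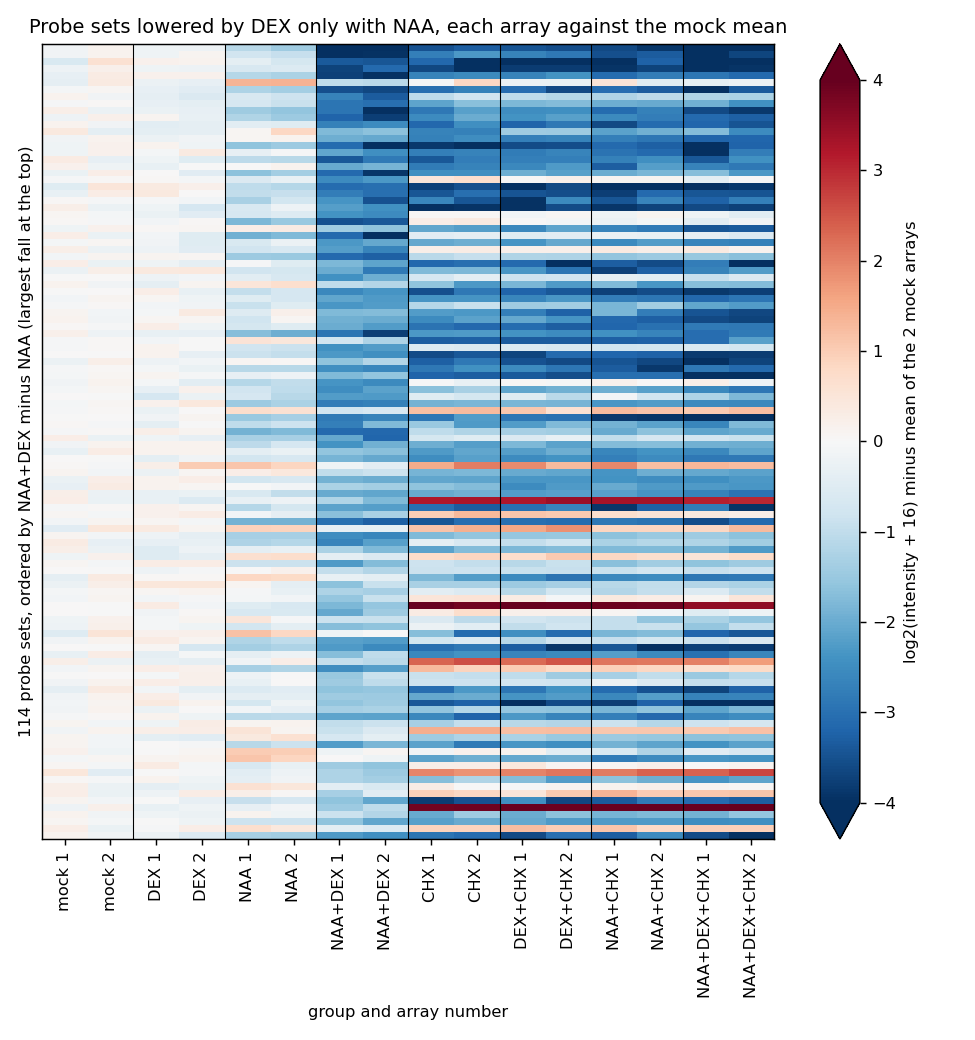
Log2 difference of each of the 114 members (rows, ordered by NAA+DEX minus NAA) from its mock mean on each of the 16 arrays (columns); blue is lower and red higher, and the colour scale is clipped at its ends. The DEX columns are pale, the NAA+DEX columns are blue in nearly all rows, and most rows are blue in all columns with CHX apart from a minority that are red there.

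NAA+DEX minus NAA, the value that chose the members, ran from -3.17 to -1.01 on the log2 scale with a median of -1.3, and the lowest corresponds to an 8.99-fold difference. The difference was 2 or more for 18 members, between 1.5 and 2 for 26 and between 1 and 1.5 for 70. In the limma fit 103 of the 114 passed the test in this contrast (adjusted p under 0.05), where 1.71% of all probe sets passed as lower; since the same arrays chose the members, nothing follows from that share. By group means, all 114 were lowest in NAA+DEX among the 4 groups without CHX. Both NAA+DEX arrays lay below both DEX arrays for 111 members, against 25% of all probe sets, and these arrays too were used by the rule. Among probe sets with 1 listed gene, those nearest the limit of -1 were AT3G53100 (-1.01), AT4G36500 (-1.022) and AT4G37550 (-1.034) inside it, and AT1G19380 (-0.997), AILP1 (-0.989) and AT5G59540 (-0.978) outside.

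DEX minus mock had a median of -0.06 over the members and ran from -0.46 to 0.62, where the lower side was bounded by the rule. No member passed the test in limma in that contrast, where 0.0528% of all probe sets passed. At an unadjusted p under 0.05 there were 5 of the 114 members and 1675 of the 22746 probe sets. A p that misses the threshold does not show that DEX alone left these genes the same. The members with 1 listed gene closest to the bound were AT2G22420 (-0.423), AT3G53100 (-0.399) and AT1G31050 (-0.382), and 4 members without one lay nearer to it, between -0.46 and -0.44. Just beyond the bound lay AT2G37870 (-0.551), AT4G21620 (-0.709) and AT3G17110 (-0.713). Without this bound the other numeric conditions held for 146 probe sets in place of 118. Over all probe sets the lower quartile of DEX minus mock was -0.21, so most probe sets of any kind lie above the bound. Nothing about the members follows from that share.

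NAA by itself divided the members. Relative to mock, 45 of them passed as lower with NAA and 8 as higher, and the median of the 114 was -0.55 against 0.05 for all probe sets, of which 6.07% passed as lower and 7.3% as higher. The rule used these arrays too, so the counts are a description.

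The members with a name beyond the locus number began with enzymes of oxidation and conjugation. PRX25 (AT2G41480), a class III peroxidase, belongs to a secreted enzyme family that oxidises phenolic compounds with hydrogen peroxide, and it read 308.3 and 328.9 in mock and 292.7 and 290.5 with DEX. It read 164.3 and 223.9 with NAA and 50.9 and 55.8 with NAA+DEX, a difference of -1.58 from NAA. PRX25 thus stepped down with NAA and again when DEX joined it. With CHX its values were 136.5 and 165.1 alone, 109.1 and 111.3 with DEX, 77.4 and 110.4 with NAA, and 62.5 and 55.6 with both. The order of the group means was therefore the same with and without CHX. The last step under CHX was -0.54 (SE 0.18, adjusted p = 0.64), short of the threshold, although the arrays did not overlap.

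GSTU20, a tau-class glutathione transferase listed with glucosinolate synthesis, read 1417 and 2120 in mock, 1906 and 1902 with DEX, 1308 and 1441 with NAA and 576.3 and 535.6 with NAA+DEX. Its NAA arrays overlapped with the mock arrays, and only NAA+DEX stood apart. Under CHX it read 346.4 and 399.8, with DEX 361.6 and 438.8, with NAA 269 and 315.3, and with NAA+DEX 279.7 and 389.2. The NAA+CHX arrays lay below those with CHX or DEX+CHX and overlapped those with NAA+DEX+CHX, and the DEX difference with NAA under CHX was 0.17 (adjusted p = 1.0).

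FMO, a flavin monooxygenase, an enzyme class that adds oxygen to small molecules, read 1162 and 1084 in mock and 1354 and 1004 with DEX. It read 687.6 and 795.4 with NAA and 271.1 and 223.8 with NAA+DEX (-1.53). CHX alone lowered it strongly relative to mock, to 131.7 and 113.2. With NAA+CHX it read 110.2 and 127.4, and with NAA+DEX+CHX it read 144.3 and 139.7. The last pair lay above the one before, with a difference of 0.23 (SE 0.17, adjusted p = 1.0) that did not pass the test.

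A transcription factor and a hormone-related enzyme complete the members with a name beyond the locus number. The products of members named only by locus are not described here. TINY (tny), an AP2/ERF-family transcription factor, read 1055 and 1178 in mock, 1255 and 1490 with DEX, 395.9 and 450.5 with NAA, and 150.8 and 158.5 with NAA+DEX. It was lower by 1.37 on the log2 scale with NAA than in mock and by a further 1.36 with NAA+DEX than with NAA. BAT1, an acyltransferase related to brassinosteroid metabolism, went the other way with auxin: it read 1062 and 1162 in mock, 1201 and 1223 with DEX, and 2409 and 2009 with NAA. With NAA+DEX it read 1135 and 986.4, which overlaps the mock arrays, so its low value relative to NAA was a return to the level of untreated roots.

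BAT1 was one of the 8 members that passed as higher with NAA than in mock. The most marked was AT4G09890, with 163.7 and 279 in mock, 180.3 and 166 with DEX, 573.6 and 587 with NAA, and 96.9 and 92.5 with NAA+DEX. It was 1.37 higher with NAA and 2.43 lower again with NAA+DEX, and so ended below mock. AT3G07350 had NAA minus mock and NAA+DEX minus NAA differences of 1.0 and -1.05, and AT2G22420 of 0.51 and -1.05. AT2G47560 (0.9 and -1.22) and AT3G14560 (0.79 and -1.13), chosen after their values were seen, were alike, and the other 2 have no listed gene. In 26 members the NAA mean was above the mock mean, whether or not the test was passed.

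**Figure D2:**
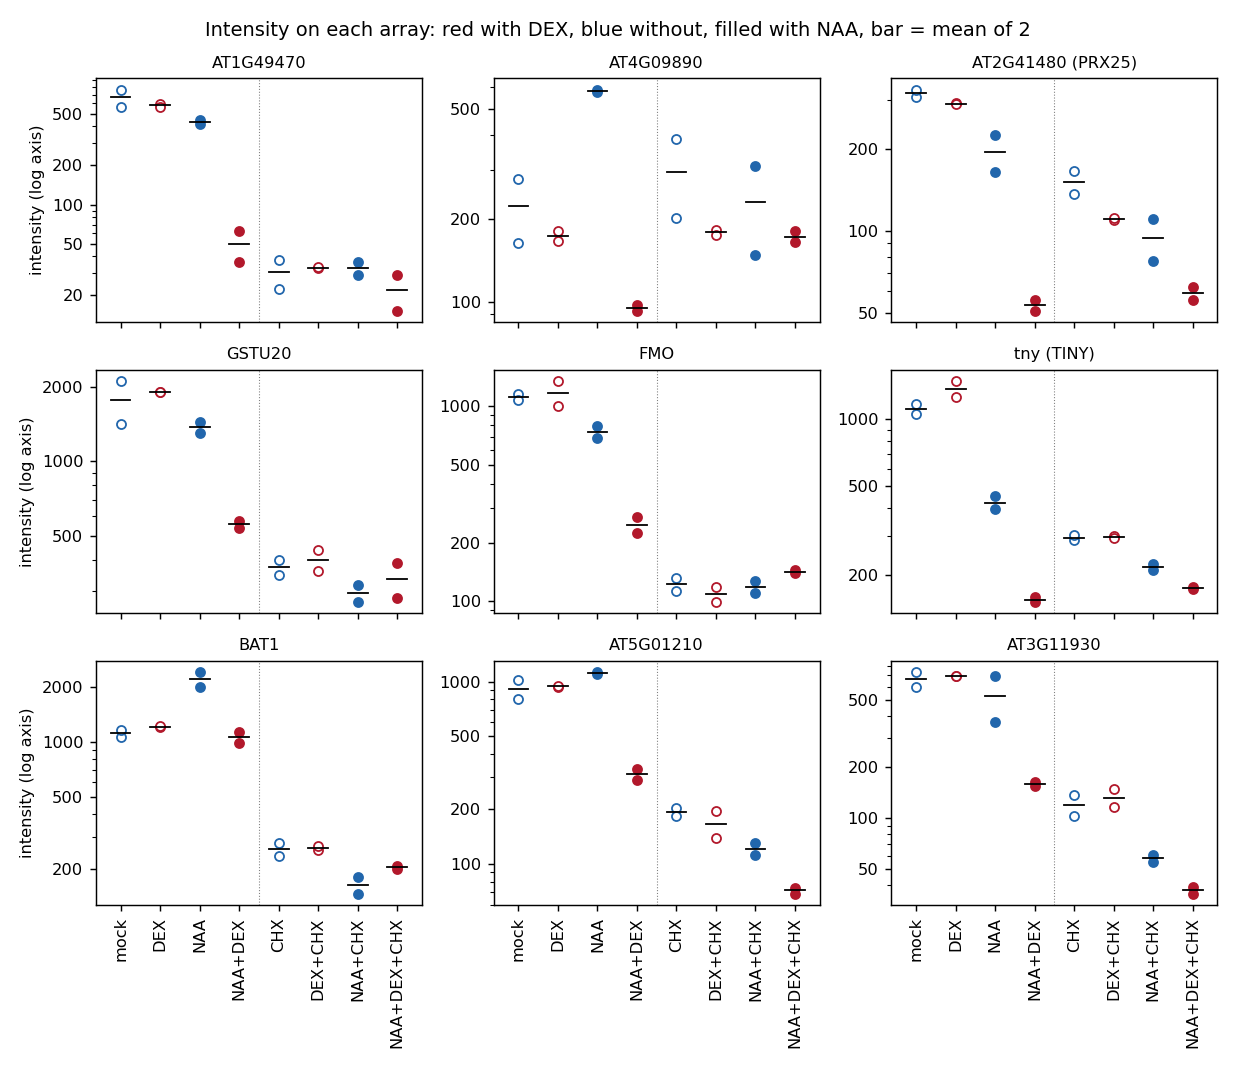
Intensity (log axis) of 9 members on each array by treatment group; open symbols are without NAA, filled ones with NAA, red with DEX, blue without, and bars are means of 2 arrays. NAA+DEX has the lowest mean left of the dotted line in each panel. AT4G09890 and BAT1, which passed as higher with NAA than in mock, are highest with NAA. In PRX25, tny, AT5G01210 and AT3G11930 both NAA+DEX+CHX arrays lie below all other arrays with CHX.

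Among the members known by locus only, AT1G49470 had the lowest NAA+DEX minus NAA value. It read 566.2 and 767 in mock, 589.7 and 566.4 with DEX, 419.4 and 447.6 with NAA, and 36.2 and 62.6 with NAA+DEX (-2.81). All CHX arrays of this gene lay between 15.2 and 37.7, so there was little signal left to fall under CHX. AT1G31050 is represented by 2 probe sets, and both were members, with differences of -2.29 and -2.02. The first read 589.3 and 660.5 in mock, 258.6 and 234.7 with NAA and 39.9 and 35.8 with NAA+DEX, a stepwise decline like that of PRX25. For AT3G47980, chosen after its values were seen, the probe sets disagreed: the member gave -1.27, and a second one gave -0.01, with 96.7 and 147.4 with NAA and 103.8 and 136.5 with NAA+DEX.

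AT1G21440 was the brightest of the 20 named falls in mock, at 2279 and 2387, and read 1465 and 1246 with NAA and 295.7 and 277.5 with NAA+DEX (-2.18). AT3G45160 read 1287 and 2489 in mock, an uneven pair, and 878.6 and 796.1 with NAA against 198.1 and 208.1 with NAA+DEX (-1.96). AT5G14940 overlapped between NAA (262 and 287.2) and mock (294.1 and 229.7) and read 52.4 and 60 with NAA+DEX (-2.01). These 3 genes thus differed in NAA relative to mock, with AT5G14940 overlapping mock and the other 2 below it on both arrays. AT3G01350, AT4G34600, AT4G39675 and AT3G10120, with falls of -1.68, -1.46, -1.58 and -1.67, had NAA minus mock differences between -0.26 and 0.58.

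CHX alone lowered most members. Relative to mock, 84 of 114 passed as lower with CHX and 15 as higher, with a median of -1.92 against -0.04 for all probe sets, of which 27.0% passed as lower and 23.0% as higher. The rule bounded this contrast from -4 to 6 and used these arrays, so the counts are descriptive. AT1G49470 (-3.89), AT3G45160 (-3.62), AT1G48690 (-3.29) and FMO (-3.04) were among the members with the largest falls from mock with CHX. AT1G48690 read 145.6 and 160.2 in mock and 1.1 and 1.5 with CHX, essentially no signal.

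With CHX alone, 34 members had a mean intensity under 100, so most stayed measurable. Some of these stayed near their mock level or rose above it. AT4G36500, one of the 15 that passed as higher, read 939.3 and 1248 in mock and 16106 and 16429 with CHX, a difference of 3.89. With NAA it read 863.8 and 1009 and with NAA+DEX 384.4 and 530.4, whereas with NAA+CHX and NAA+DEX+CHX it read 16983 and 17580, and 17119 and 18063. AT4G33420 read 1249 and 1324 in mock and 1817 and 2076 with CHX, and AT3G47540 read 1447 and 1270 in mock and 1403 and 1392 with CHX. The first 2 of these genes passed as higher with CHX, and AT3G47540 did not pass. Their DEX differences with NAA were -1.02, -1.97 and -1.85 without CHX, and 0.03, -0.3 and -0.27 with it. AT5G67150 passed as lower with CHX, by 0.55, but kept a clear signal, with 219.2 and 207.3 with NAA and 59.1 and 69.2 with NAA+DEX, against 216.4 and 226.8 with NAA+CHX and 245.4 and 228.3 with NAA+DEX+CHX. AT5G05790, which also passed as lower with CHX, gave -1.67 without CHX and -0.35 with it.

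The arrays with NAA+CHX and NAA+DEX+CHX played no part in choosing the members and give an independent measure of whether DEX lowered them when protein synthesis was blocked. That block also covers synthesis of the fusion itself. The LBD16 probe set read 1156.9 and 1127.2 with NAA+CHX against 5216.9 and 5072.7 with NAA. The amount of fusion protein was not measured, and its part in the differences was not tested. The members lay lower with DEX more often than other probe sets, but by little: the median difference was -0.18, with quartiles of -0.35 and -0.01, against -0.02, with quartiles of -0.17 and 0.11, for all 22746. The difference was below 0 for 86 of the 114 (75.4%), against 54.5% of all probe sets. Both arrays with DEX lay below both without it for 52 members (45.6%), against 20.5% of all probe sets, and above both for 10, against 15.2%. A single member passed the test as lower and none as higher; 0.0176% of all probe sets passed as lower and 0.0923% as higher. At an unadjusted p under 0.05 there were 24 members and 1304 of all probe sets. A difference of -0.5 or lower was found for 19 members (16.7%, against 5.9% of all probe sets), of -1 or lower for 6 (5.26% against 0.651%), and of 0.5 or higher for 3 (2.63% against 3.56%).

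The median was the same in bright and dim members. In the 76 members with a mean intensity of at least 100 with NAA+CHX it was -0.18, and 60 of them were below 0. It was also -0.18 in the 38 dimmer members, of which 26 were below 0, and -0.19 in the 35 members of at least 500, of which 31 were below 0. Over the probe sets of the whole array with at least 100 it was -0.02. For the 84 members that were lower with CHX alone the median was -0.21, for the 15 that were higher -0.13, and for the 15 that did not pass either way -0.11. The median was small in each of these sets, and the cause of the small size under CHX was not tested. Across the 114 members, the DEX difference with NAA and the same difference under CHX, which have no array in common, had a Pearson r of 0.2 and a Spearman rho of 0.22; all points come from the same 8 arrays and genes are not independent replicates.

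**Figure D3:**
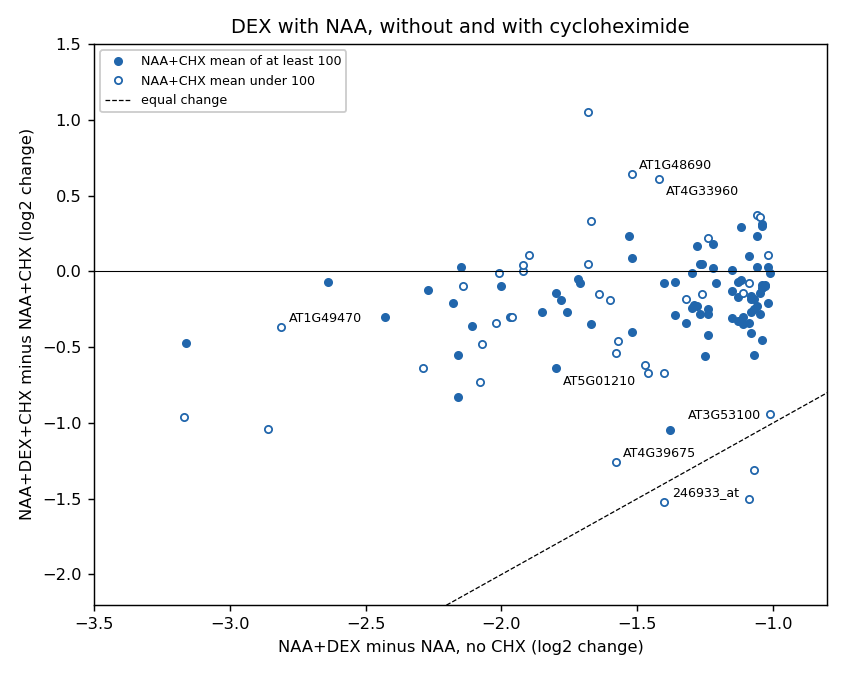
DEX difference in the presence of NAA for each of the 114 members without CHX (x axis, the value that chose them) and with CHX (y axis), in log2 units; filled symbols have a mean intensity of at least 100 with NAA+CHX, open ones less, and the dashed line marks equal change. Most points lie slightly below 0 on the y axis and far above the dashed line, and 246933_at is among the few on or beyond it.

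The member that passed is the probe set 246933_at, which has no listed gene. It read 341.9 and 379.6 with NAA and 117.2 and 136 with NAA+DEX. Under CHX it was dim, with 33.5 and 30 with CHX, 27.9 and 22.8 with DEX+CHX, 39.5 and 39.7 with NAA+CHX and 1.4 and 5.6 with NAA+DEX+CHX. Both of the last arrays stood below all others. Its difference was -1.52 (SE 0.15, adjusted p = 0.0016), and over the other settings the difference was -3.35 to -0.62 and the adjusted p 0.00025 to 0.057. At such low intensities the pseudocount sets much of the size. It missed the threshold with a pseudocount of 64 (adjusted p = 0.053) and when the model held only the 8 arrays with CHX (adjusted p = 0.057), a model in which no member passed. The model of all 16 arrays draws its estimate of spread partly from the arrays that chose the members.

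Besides 246933_at, the lowest members with a listed gene were AT4G39675 (-1.26), AT3G53100 (-0.94), AT4G34600 and AT2G21560 (both -0.67) and AT5G01210 (-0.64). AT4G39675 read 81.7 and 35.6 with NAA+CHX, a wide pair, and 15.9 and 11.8 with NAA+DEX+CHX. AT5G01210 read 130.3 and 112.2 against 68.9 and 74.4, and its arrays with DEX were clearly below those without. None of these genes passed the test. The highest were AT1G48690 (0.64), AT4G33960 (0.61), AT3G07350 (0.36), AT3G10120 (0.33) and BAT1 (0.3), of which AT1G48690 and AT3G10120 had at most 21.2 and 12 on any array with NAA+CHX or NAA+DEX+CHX.

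NAA on top of DEX under CHX gave the most calls. Comparing NAA+DEX+CHX with DEX+CHX, 7 members passed as lower and none as higher, against 0.536% and 0.642% of all probe sets. The median over the members was -0.28 against 0 for all probe sets, 86 were below 0 (75.4% against 50.3%), and the arrays were separate and lower for 58 (50.9% against 22.3%). This contrast shares the NAA+DEX+CHX arrays with the one before. The 3 of the 7 with a listed gene were AT3G11930 (-1.46, SE 0.25, adjusted p = 0.025), AT5G01210 (-1.04, SE 0.17, adjusted p = 0.023) and tny (-0.71, SE 0.13, adjusted p = 0.029). The others were 246933_at (-1.09), 249867_at (-1.11), 251324_at (-1.31) and 247954_at (-0.7), with adjusted p of 0.0097 to 0.044.

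AT3G11930 read 148.4 and 115.7 with DEX+CHX, 60.8 and 54.7 with NAA+CHX and 39.3 and 35.7 with NAA+DEX+CHX. Its CHX arrays, 102.9 and 137.1, overlapped those with DEX+CHX. The arrays with NAA thus lay below those without it, and lowest where DEX was also present. TINY read 286.6 and 300.9 with CHX, 300.5 and 293.5 with DEX+CHX, 211.4 and 223.6 with NAA+CHX, and 176.8 and 173.9 with NAA+DEX+CHX, in the same order. With only the CHX arrays in the model, none of the 7 passed. Leaving out either array of DEX+CHX left 1 or 0 passing members, and leaving out either of NAA+DEX+CHX left 0 or 2, so these calls rest on all 4 arrays.

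Under CHX, NAA without DEX lowered a single member past the threshold, 251324_at, from 1105 and 1758 with CHX to 554.5 and 531.5 with NAA+CHX (-1.34, SE 0.19, adjusted p = 0.024, 0.00033 to 0.18 over the other settings). No member passed as higher, and 0.0835% of all probe sets passed in each direction. The median was -0.22 against 0.01 for all probe sets, and 79 members were below 0 (69.3% against 47.9%). The arrays did not overlap and were lower for 55 members (48.2% against 21.8%). Of the members, 251324_at was among the brightest in roots without CHX, at 8155 and 8470 in mock, 2930 and 3278 with NAA and 1156 and 1304 with NAA+DEX. The CHX arrays of this contrast entered the rule through its wide range for CHX minus mock.

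DEX without NAA under CHX gave no passing member in limma, where 0.0528% of all probe sets passed, all as higher. At an unadjusted p under 0.05 there were 14 members and 1123 of all probe sets. The median over the members was -0.12 against -0.02, 78 were below 0 (68.4% against 54.5%), and the arrays were separate and lower for 39 (34.2% against 20%). The DEX by NAA interaction under CHX asks whether DEX acted differently with auxin there. It had a median of -0.1 over the members against -0.01, and neither a member nor any other probe set (0.0%) passed in limma (10 members and 1067 of all probe sets at an unadjusted p under 0.05). The dependence on NAA that defines the members was therefore not detected under CHX with 2 arrays a group. The scaled intensities do not show whether it was absent.

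**Figure D4:**
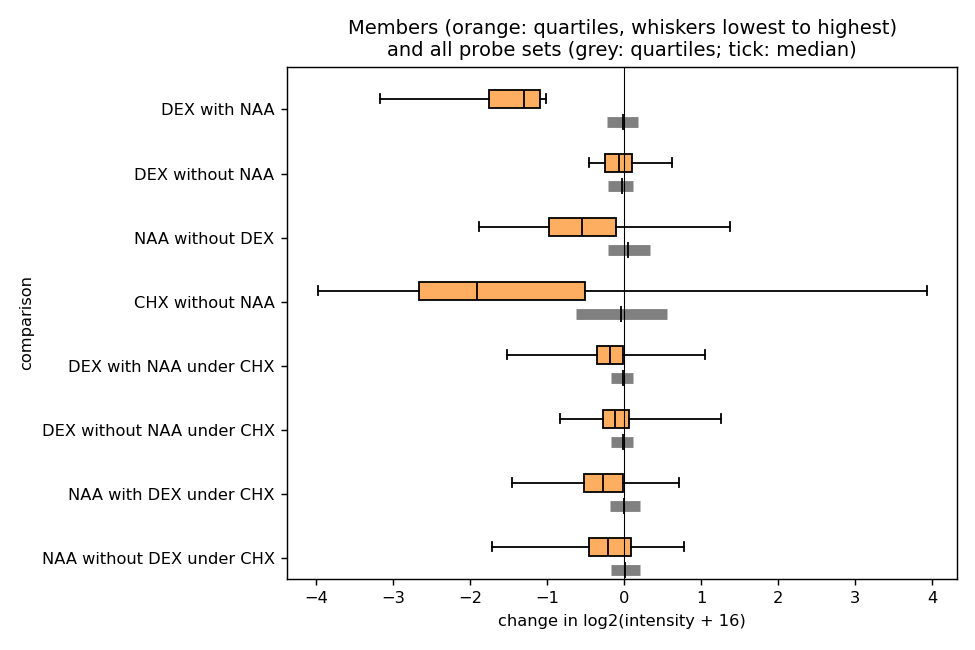
Distribution of log2 differences over the 114 members and over all 22746 probe sets for each comparison, with boxes from the lower to the upper quartile and whiskers, for the members, from the lowest to the highest value. Of the comparisons used by the rule, the members lie far below all probe sets for DEX with NAA and CHX without NAA. The member median is -0.55 against 0.05 for NAA without DEX, and -0.06 against -0.03 for DEX without NAA. The members lie slightly below in the comparisons under CHX, where the member medians are -0.18, -0.28, -0.12 and -0.22.

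The 20 gene lists were matched by symbol or synonym and held 2 members in all. Since 42 of the 46 members with 1 gene carry only a locus number as symbol, members of these families can have been missed. All counts for the lists are of matched genes. Of the 6 class III peroxidases that the list matched, PRX25 was the member. None of the other matched genes passed for DEX with NAA, where 2.93% of all probe sets passed in either direction. Further peroxidase genes known by locus only can be missing from this list, so it does not show that PRX25 stands alone. Of 14 glutathione transferases, GSTU20 was the member, and GSTU28 rose by 1.06 (adjusted p = 0.022), so genes of this family did not all go one way. The glucosinolate synthesis list matched 2 genes, GSTU20 among them. The glucosinolate genes BCAT4 (-1.93) and UGT74B1 (-1.2) also met the numeric conditions but were set aside by name, so that count leaves them out.

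Among the genes matched by the other lists the members' pattern was rare. Of 24 cytochromes P450, none was a member, and CYP71B37 (-0.93) and CYP71B34 (-0.84) passed as lower. Of 15 auxin response genes, GH3.1, which conjugates auxin to amino acids, rose by 1.3, and HAT2, a homeodomain transcription factor, fell by 0.8. Of 29 serine carboxypeptidase-like genes, scpl28 passed as higher (1.14) and scpl31 as lower (-2.26), and of 23 beta-glucosidases and beta-galactosidases BGLU46 (-0.92) and BGLU44 (-0.91) passed as lower. Transcription factors with a MYB, bHLH, NAC, WRKY or ERF symbol (15 matched) and sugar transporters (18) held no matched member and no gene that passed for DEX with NAA. Matching by symbol leaves out TINY for its name, and any such gene known by locus only. Of 17 jasmonate and defence genes, LCR69, a defensin-like gene, passed as lower (-1.14). Of 16 transporters of nitrate and other ions, AT1G33440 passed as higher (0.84), and of 4 cell cycle genes PRL passed as higher (0.67). Root hair, phenylpropanoid and auxin transport lists matched at most 4 genes each and none that passed, and 5 lists matched no gene.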

How the data were processed

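Roots of 8 treatments were hybridised to 16 one-colour Affymetrix arrays. The deposited table holds 1 linear intensity per probe set and array, which the authors made with Affymetrix Expression Console 1.3, per the submitters' processing notes. How probes were summarised and background was corrected is not given in the sources used here. Each array had a 2% trimmed mean of 500, which shows that the authors scaled the arrays individually. Either of 2 labelling kits may have been used for an array, and labelling was therefore no term of the model.

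After removal of 64 control probe sets from 22810, log2(intensity + 16) of the other 22746 was fitted in limma 3.58.1 (R 4.3.3) as a group-means model of 16 arrays with moderated variances and 8 residual degrees of freedom. Tests were two-sided, with Benjamini-Hochberg adjustment over all probe sets and a threshold of 0.05. The pseudocount understates changes of dim probe sets, and no filter was applied. Precision is limited by the number of arrays. The code was tested on simulated data.

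Probe sets with exactly 1 gene in the platform annotation were named through the reference gene table (TAIR10.1). All 46 such members matched. The members and lists were chosen with earlier results of these data known. The glutathione transferase list was matched by class (GSTU, GSTF, GSTL, GSTT and GSTZ), numbered symbols were read without clone names, and cyclophilins, peptide deformylases and pEARLI4, caught by shared prefixes, were left out, all changed after the data were seen. Named were the 20 lowest values of NAA+DEX minus NAA among probe sets of 1 gene, every member that passed a test, the 5 lowest and 5 highest for DEX with NAA under CHX, the nearest at 2 limits of the rule and list members. Genes outside this rule are marked in the text, and AT1G74055 was named because its arrays separated in opposite directions with and without CHX.

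The labels call the 2 sets of a treatment independent, and they do not say whether these came from separate plants or days, so each p-value reflects only how far these samples varied, which may be technical. Arrays with the same number deviated from their groups with correlations of -0.06 to 0.07 over 28 pairs of groups, so the numbers were not treated as pairs. The alternatives were pseudocounts of 1 and 64, quantile normalization, median centring, a filter at a mean intensity of 50, an intensity trend with robust prior, array weights, the 8 CHX arrays alone, the replicate block and leaving out each array in turn.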

Additional observations from a re-analysis of the deposited data

Results flagged for a closer look

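In 7 members with a listed gene, both arrays with NAA+DEX+CHX lay above both with NAA+CHX, whereas without CHX both NAA+DEX arrays lay below both NAA arrays. The second part was a condition for being a member, and the difference between the 2 states was not tested. The DEX differences with NAA under CHX were 0.33 for AT3G10120, 0.23 for FMO, 0.64 for AT1G48690, 0.09 for AT5G67150, 0.61 for AT4G33960, 0.23 for AT1G74055 and 0.3 for BAT1 (log2), and none passed the test. All 22746 probe sets showed such separate, higher arrays in 15.2% of cases in that comparison. AT1G48690 and AT3G10120 were near 0 intensity under CHX, whereas BAT1 read 147.2 and 182.1 with NAA+CHX and 209.3 and 200.6 with NAA+DEX+CHX.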

How the results depend on the processing

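The median differences of the members under CHX were below 0 in all 5 comparisons and under each alternative run, and no named result reversed. Of the values for named members, 3805 kept their direction and side of the threshold, 55 fell short of it and 10 newly passed. For DEX with NAA under CHX, 1 member passed, against 2 with a pseudocount of 1, 0 with a pseudocount of 64, 2 with the dim filter, 2 with the intensity trend and 0 in the model of the 8 CHX arrays, in which 8 of all probe sets passed in place of 25. For NAA with DEX under CHX, 7 members passed, against 11 with the filter, 12 with the trend and 0 with the CHX arrays alone. All probe sets passing there were 268, against 132 and 600 with pseudocounts of 1 and 64, 474 with the filter, 611 with the trend, 406 with array weights and 21 with the CHX arrays alone, and the member median was -0.2 with a pseudocount of 64. For NAA without DEX under CHX, 1 member passed, against 0 and 4 with pseudocounts of 1 and 64, 2 with quantile normalization, 5 with the filter, 7 with the trend, 2 with array weights and 0 with the CHX arrays alone. All probe sets passing there were 38, against 14, 262, 166, 301, 100 and 0 with pseudocounts of 1 and 64, the filter, the trend, array weights and the CHX arrays alone. For DEX without NAA under CHX 12 of all probe sets passed, and 0 with the CHX arrays alone; for the interaction 2 passed with the trend in place of 0. The cause was not tested.

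With the replicate block, 2, 7, 0, 1 and 0 members passed for DEX with NAA, NAA with DEX, DEX without NAA, NAA without DEX and the interaction under CHX, so the block added 1 call and ended none in the first of these. The same-numbered arrays share only a number.

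Leaving out 1 array at a time gave 1 to 2, 0 to 7, 0 to 0, 0 to 2 and 0 to 0 passing members in that order, and 12 to 27, 18 to 300, 4 to 15, 3 to 51 and 0 to 1 of all probe sets. The medians were -0.22 to -0.15, -0.33 to -0.21, -0.15 to -0.05, -0.28 to -0.14 and -0.16 to -0.04. The rule itself gave 98 members without the second mock array and 146 without the second NAA+DEX array, an alternative added after seeing the data. It gave 134 with a pseudocount of 1 (108 shared with the 114), 84 with 64 (73 shared), 97 with quantile normalization (96 shared) and 106 with median centring (102 shared). Under CHX 38 members had a mean intensity under 100 with NAA+CHX, where the pseudocount sets much of a difference.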
